A study of Mus musculus with 6 samples.

Results

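The genes described here are those of glutathione, of the transcription factor NRF2 with its inhibitor KEAP1, and of the enzymes that remove peroxides and superoxide. They were taken by name from the deposited gene table: all protein-coding glutathione S-transferases of the alpha, kappa, mu, omega, pi, theta and zeta classes, all glutathione peroxidases and peroxiredoxins, the 3 superoxide dismutases, and 15 further genes (Nfe2l2, Keap1, Nqo1, Hmox1, Gclc, Gclm, Gsr, Gss, Txn1, Txnrd1, Srxn1, Cat, G6pdx, Pgd and Taldo1). This gave 54 of 54532 genes. All 54 had at least 1 read, and 49 passed the filter on low counts, among 13134 genes tested. RNA was measured by bulk sequencing in the ischemic lobe of C57BL/6 mouse livers after 1 h of warm ischemia, in which the blood supply of a lobe is clamped, and 12 h of reperfusion. Of the libraries, 3 were from mice with a hepatocyte-specific deficiency of IRF8, an interferon regulatory factor (IRF8-cKO-71, IRF8-cKO-88, IRF8-cKO-106), and 3 were from wild-type mice (WT-14, WT-44, WT-77); values by library keep this order within each group. All 6 libraries came from injured liver, so every value below is a level after injury. The animals' age and the promoter that drives the hepatocyte deletion are not named by the labels. No label says that each library is a separate animal, so the p-values cover the spread between samples, which may be technical.

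NRF2, encoded by Nfe2l2, is a transcription factor that KEAP1 holds in the cytoplasm and marks for degradation until oxidants or electrophiles modify KEAP1. Freed NRF2 pairs with a small MAF protein and binds antioxidant response elements in genes for glutathione synthesis, glutathione transfer, thioredoxin recycling and NADPH supply, while BACH1 competes for these elements. Hepatocytes make much of the body's glutathione, and the return of oxygen after ischemia exposes them to superoxide and peroxides that these enzymes remove.

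Library totals ran from 14758237 to 16805830 reads. Levels below are counts scaled to a common library size (CPM, as usually defined) with edgeR's TMM scaling, which corrects each total for composition; the factors were 0.786 to 1.07 in WT, 0.966 in IRF8-cKO-71, 0.990 in IRF8-cKO-88 and 1.32 in IRF8-cKO-106, and that last library stands apart in this respect. Irf8 itself, the deleted gene, was at 9.70 ± 0.523 CPM in WT and 5.52 ± 1.28 in IRF8-cKO (SD, n = 3 each), a log2 difference of -0.81 with an edgeR adjusted p of 0.174. Its reads remained at 90 to 109 per IRF8-cKO library, in tissue that also holds cells in which the gene was not targeted. Summed hepatocyte markers overlapped between the groups (97635 to 136199 CPM in WT and 75476 to 102512 in IRF8-cKO). All 10 were tested and none called; 6 differences were negative, the median was -0.42, and Alb and Ttr were lower and Apob higher without overlap.

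No member of the set passed the test. With edgeR's quasi-likelihood test and Benjamini-Hochberg adjustment over all 13134 genes, 0 of the 49 members tested had an adjusted p under 0.05, where 182 of all genes (1.39%) did, 0.449% higher and 0.937% lower in IRF8-cKO. The lowest adjusted p in the set was 0.0739, for Gstm6. At an unadjusted p under 0.05 there were 7 members, beside 24.1% of all genes. They were Keap1, which was higher in IRF8-cKO, and Gsta3, Gstm5, Gstm6, Gstm7, Gstp1 and Prdx5, which were lower. DESeq2 called 5 members, Keap1 higher and Gsta3, Gstm6, Gstp1 and Prdx5 lower, where it called 9.46% of all genes; limma-voom called 0. Without IRF8-cKO-88 edgeR called 1 member, Gstm4, beside 8.83% of all genes.

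Negative differences outnumbered positive ones. Of the 49 members, 30 had a negative log2 difference and 19 a positive one, with a median of -0.39, beside a median of 0.03 and 51.5% positive over all genes tested. The 20 tested glutathione S-transferases had 16 negative differences and a median of -0.60, whereas the 4 genes of glutathione synthesis and reduction were all positive, with a median of 0.41. Of these 4, Gclc, Gsr and Gss changed sign when single libraries were left out, and no test compared the roles. CPM did not overlap between the groups for 16 members that were lower in IRF8-cKO and for 1, Keap1, that was higher; the background was 14.5% and 14.4% of all genes. The scaling set much of this count. With library totals alone, 6 members were lower without overlap and 3 (Keap1, Gpx6 and Gstt3) were higher, beside 9.72% and 15.6% of all genes, and the median of the members was -0.18 beside 0.25 for all genes. In bulk tissue, fewer cells of a type and less RNA per cell cannot be told apart.

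**Figure D1:**
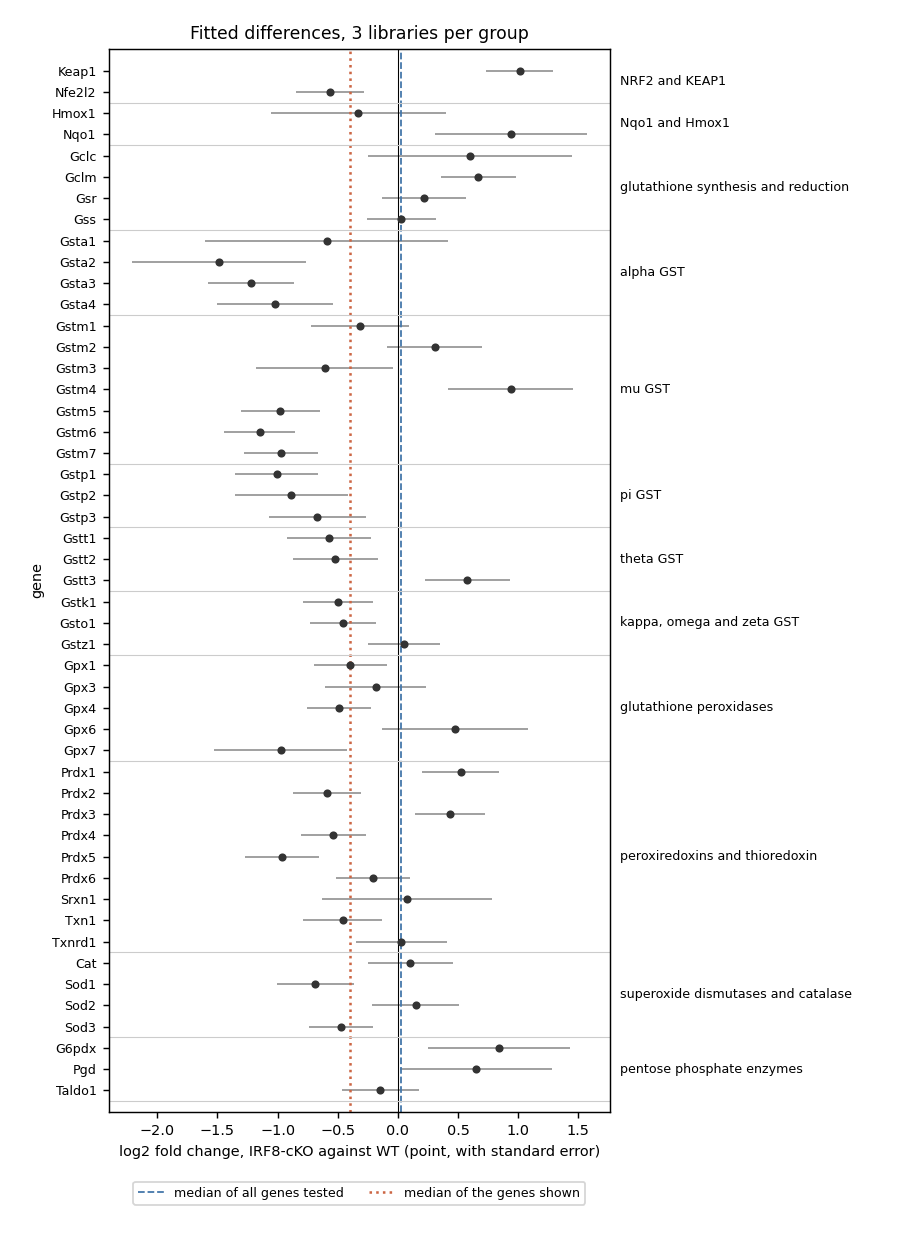
Fitted log2 fold change of each of the 49 members tested, IRF8-cKO against WT, with its standard error (horizontal bar), by role; the dashed line is the median of all genes tested (0.03) and the dotted line that of the members (-0.39). The points of the alpha and pi transferases all lie left of 0, those of glutathione synthesis and reduction right of 0, and no gene passed the adjusted threshold.

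Marker lists of 8 other cell types were read in the same way. Kupffer cell markers, of the resident liver macrophages, summed to 122.8 to 149.6 CPM in WT and 196 to 412 in IRF8-cKO, with all 12 differences positive and 0 called. Of 10 neutrophil markers tested 5 were called lower. Their sum overlapped, at 1217 to 3542 CPM in WT and 785 to 4658 in IRF8-cKO, and was mostly Lcn2, which injured hepatocytes also make and which was the 1 marker with a positive difference (0.19). Without Lcn2, left out after its values were seen, the sum was 187 to 231 CPM in WT and 25.2 to 55.5 in IRF8-cKO, and Ly6g, Ngp and Camp were at 0 in 1, 1 and 2 libraries. Cholangiocyte markers, of the bile duct lining, summed to 466 to 953 CPM in WT and 149 to 258 in IRF8-cKO, with 6 of 7 differences negative, 0 called, and Cftr and Cldn4 at 0 in 2 and 1 libraries. Erythroid and platelet markers summed to 232 to 334 CPM in WT and 105 to 158 in IRF8-cKO, with all 8 differences negative, 1 called and Slc4a1 at 0 in 4 libraries. The summed markers of the remaining lists overlapped, with 0 called in each: sinusoidal endothelial (215 to 298 CPM in WT and 187 to 266 in IRF8-cKO), hepatic stellate (347 to 521 and 287 to 447), monocyte and macrophage (499 to 1088 and 156 to 950.5), and T and NK cells (2.51 to 6.18 and 3.66 to 6.23, with Cd8a and Ncr1 at 0 in 1 and 5 libraries). In WT the monocyte and macrophage sum was mostly Cd14. Without Cd14, left out after its values were seen, that sum was 111 to 119 CPM in WT and 81.7 to 113 in IRF8-cKO. With Cd14, 6 of the 9 differences tested were negative, with a median of -1.02. The part of all these cell types in the differences of the antioxidant genes was not tested.

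Levels per kilobase of gene length, averaged over the WT libraries, put Gstp1 first at 1445 CPM per kb, followed by Gpx1 at 989.8, Gstm1 at 592, Cat at 362 and Srxn1 at 275. Gstp1 and Gpx1 are the pi-class transferase and the main cytosolic glutathione peroxidase, Gstm1 the main mu-class transferase of liver. The deposited table gives Gstp1 a length of 757 bases, where GENCODE M21 has 1548 exonic bases, so that its place above Gpx1 depends on the annotation. The spread among the WT libraries was 1044 to 1922 CPM per kb for Gstp1 and 927 to 1071 for Gpx1, and these overlap. Members together took 1.42%, 1.04% and 1.00% of the reads of the WT libraries. In IRF8-cKO they took 0.915%, 0.911% and 1.83%. The high share in IRF8-cKO-106 lay partly in 2 genes, Gclc and Srxn1, which held 26.9% of its member reads, against 2.51% in IRF8-cKO-71, 13.96% in IRF8-cKO-88 and 9.76% to 12.4% in WT. Without these 2 genes the members took 1.34% of reads in IRF8-cKO-106, 0.892% and 0.784% in the other IRF8-cKO libraries and 0.903% to 1.24% in WT. The shares of all reads were taken on raw library totals, without the TMM factors (1.32 in IRF8-cKO-106 and 0.786 to 1.07 in WT). The place of IRF8-cKO-106 above WT in these shares may therefore depend on the scaling.

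**Figure D2:**
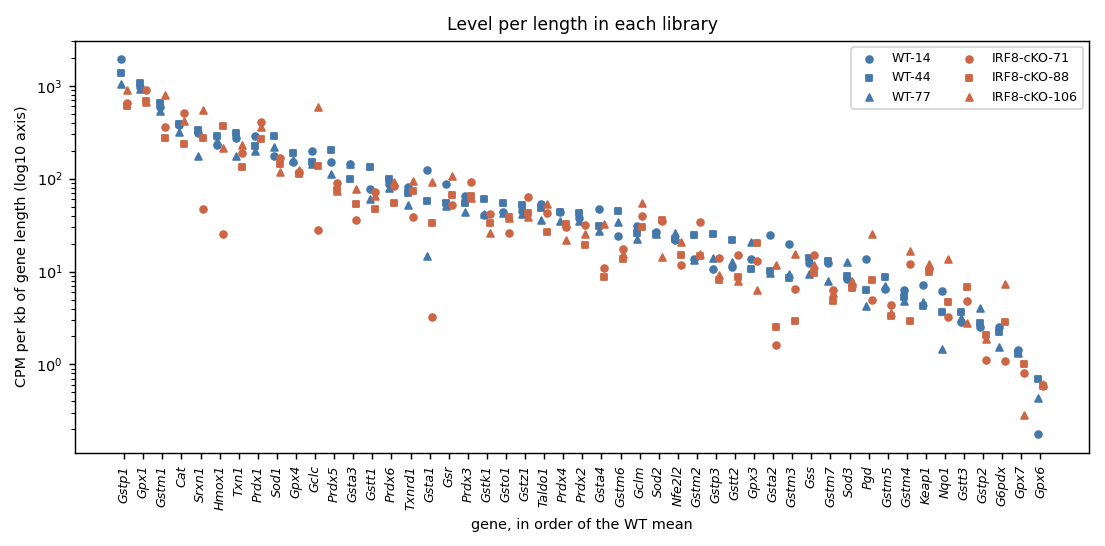
CPM per kilobase of gene length (log10 axis) of the 49 members tested in each library, WT in blue and IRF8-cKO in red, ordered by the WT mean. Levels span from Gstp1 (1445 in WT) to Gpx6 (0.437), and Gclc and Srxn1 show IRF8-cKO-106 high and IRF8-cKO-71 low.

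The sensor and the factor had opposite signs. Keap1 (ENSMUSG00000003308, mm10 chr9:21229730-21239361, minus strand), the adaptor that targets NRF2 for degradation, was at 33.4, 20.2 and 22.2 CPM in WT and at 50.4, 46.1 and 56.5 CPM in IRF8-cKO. Every IRF8-cKO library was above every WT library. The log2 difference was 1.01 (SE 0.28, edgeR adjusted p = 0.0869), so the gene missed the threshold. Of its exonic bases 10.9% overlap Gm16754 on the other strand, and with the strand setting not given, reads of the pair cannot be told apart there. Nfe2l2 (ENSMUSG00000015839, chr2:75675513-75704641, minus strand) was at 82.7, 86.2 and 99.9 CPM in WT and at 45.1, 57.7 and 78.5 CPM in IRF8-cKO. All 3 IRF8-cKO values lay below the WT values, the highest of them by little. Its log2 difference was -0.57 (SE 0.28, adjusted p = 0.246), and with library totals alone its groups overlapped.

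The partners and competitors of NRF2 that lie outside the set were read from a list of 19 genes, of which 18 were tested; 0 were called, 9 differences were positive and 9 negative, and the median was 0.05. The 2 with the lowest p were the repressors of the BACH family, which occupy antioxidant response elements in place of NRF2. Bach2 was at 8.09, 13.6 and 15.9 CPM in WT and at 2.22, 4.50 and 3.24 CPM in IRF8-cKO, without overlap (log2 difference -1.91, SE 0.41, adjusted p = 0.0531). Bach1 was at 95.9, 140.8 and 181 CPM in WT and at 32.1, 62.1 and 65.1 CPM in IRF8-cKO, also without overlap (-1.39, SE 0.36, adjusted p = 0.0740). Both were called when IRF8-cKO-88 was left out, with adjusted p of 0.0166 and 0.0454. That fit called 8.83% of all genes, beside 1.39% in the reported fit. Maff, a small MAF partner chosen for mention after its values were seen, was at 60.7, 160.0 and 166 CPM in WT and at 1.54, 18.3 and 30.8 CPM in IRF8-cKO (log2 difference -2.93, adjusted p = 0.102). The other small MAF genes of the list, Mafg and Mafk, overlapped between the groups, with differences of -0.07 and -0.84. Syvn1 and Nfe2l1, also named after their values were seen, had a lower p than Maff and positive differences. These were 2.17 (edgeR adjusted p = 0.0975) with overlap for Syvn1 and 0.86 (adjusted p = 0.0996) without overlap for Nfe2l1. In the list, 2 of the 18 genes tested were higher and 3 lower without overlap, beside 14.4% and 14.5% of all genes.

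**Figure D3:**
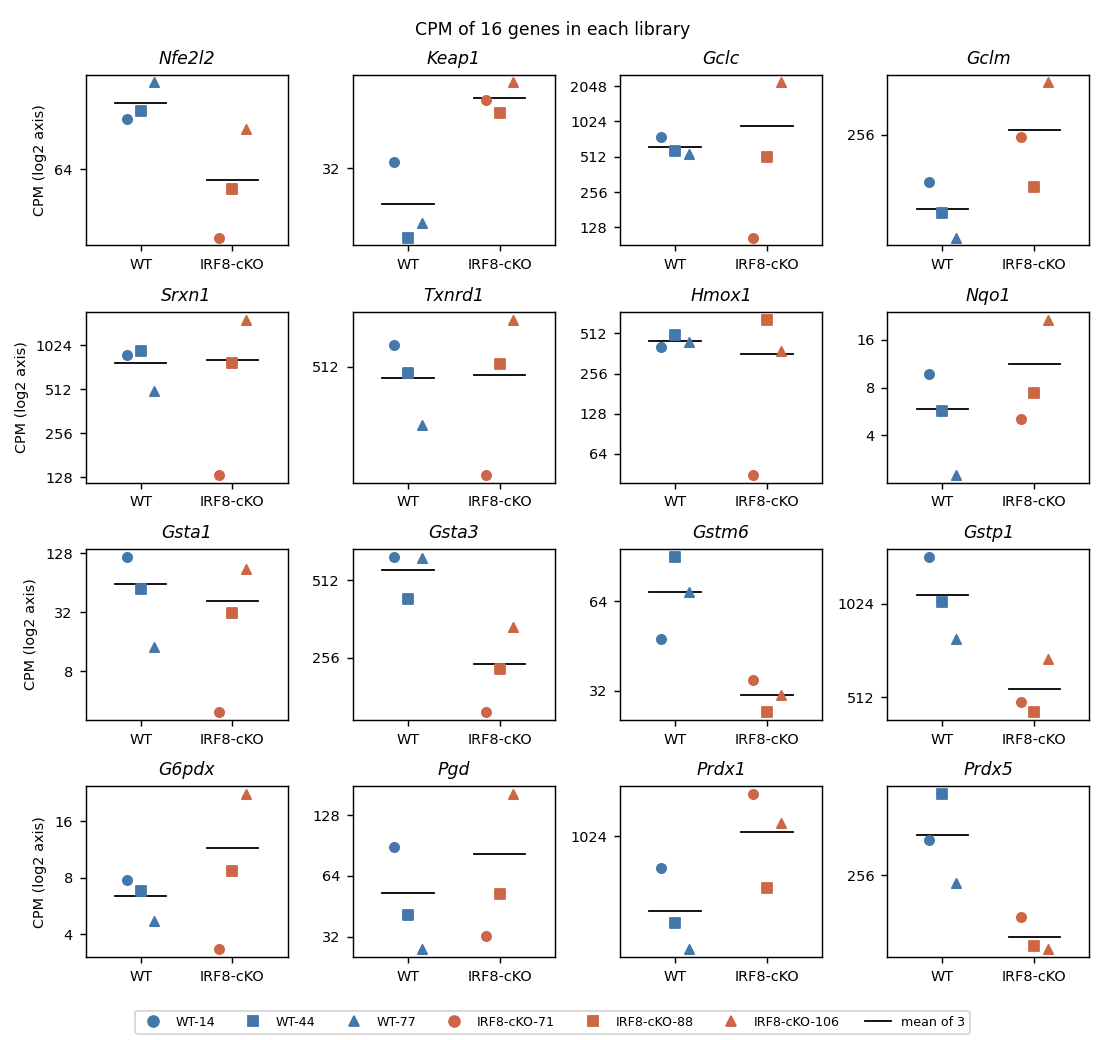
CPM (log2 axes, each panel with its own range) of 16 members in each library, WT in blue and IRF8-cKO in red, with a symbol per library and a line at the mean of 3. Keap1 lies higher and Gsta3, Gstm6, Gstp1 and Prdx5 lower in all IRF8-cKO libraries, whereas Gclc and Srxn1 have IRF8-cKO libraries both below and above all WT libraries.

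Several classical NRF2 targets, among them Gclc, Srxn1 and Hmox1, had IRF8-cKO libraries far apart. Gclc (ENSMUSG00000032350, chr9:77754535-77794485, plus strand), the catalytic subunit of glutamate-cysteine ligase, which sets the rate of glutathione synthesis, was at 753, 569.7 and 543 CPM in WT. In the IRF8-cKO libraries it was at 104.6, 510.1 and 2208 CPM, from 1696, 8270 and 47664 reads. One IRF8-cKO library thus lay far below the WT range, one just under it and one far above it. The log2 difference of 0.60 (SE 0.85, adjusted p = 0.698) changed sign to -0.995 without IRF8-cKO-106 and to -0.35 with limma-voom.

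Srxn1 (ENSMUSG00000032802, chr2:152105516-152111376, plus strand), encoding sulfiredoxin, which restores overoxidised peroxiredoxins, followed the same order of libraries. It was at 886, 942 and 496 CPM in WT and at 133, 775 and 1537 CPM in IRF8-cKO. The groups had nearly the same mean, 775 ± 243 and 815 ± 703 CPM (SD, n = 3 each), and the log2 difference was 0.07 (SE 0.71, adjusted p = 0.959). It was -0.75 without IRF8-cKO-106, -0.17 without WT-77 and -0.48 with limma-voom. Txnrd1, the cytosolic thioredoxin reductase, was at 582, 493 and 365 CPM in WT and at 272, 520 and 675 CPM in IRF8-cKO, again lowest in IRF8-cKO-71 and highest in IRF8-cKO-106. Its log2 difference of 0.03 (adjusted p = 0.972) was negative without WT-77 (-0.14), IRF8-cKO-88 (-0.01) or IRF8-cKO-106 (-0.26), and with limma-voom (-0.05).

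Gclm (ENSMUSG00000028124, chr3:122245557-122270732, plus strand), the modifier subunit of the same ligase as Gclc, did not share the low value in IRF8-cKO-71. It was at 194, 162 and 140.1 CPM in WT and at 252, 189 and 349 CPM in IRF8-cKO. Only IRF8-cKO-88 lay within the WT range, and the log2 difference was 0.67 (SE 0.31, adjusted p = 0.222). Within IRF8-cKO, Gclc thus spanned 21.1-fold and Gclm 1.85-fold. Gsr, which returns oxidised glutathione to its reduced form, and Gss, the second enzyme of the synthesis, had log2 differences of 0.22 and 0.03, inside their standard errors of 0.35 and 0.28. Gsr was at -0.10 without IRF8-cKO-106, and Gss at -0.12 without WT-77 and -0.15 without IRF8-cKO-71.

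Hmox1 (ENSMUSG00000005413, chr8:75093621-75100589, plus strand), encoding heme oxygenase 1, which degrades heme, had another order. It was at 407, 498 and 441 CPM in WT and at 44.5, 650.2 and 378 CPM in IRF8-cKO, so that IRF8-cKO-71 was far below and IRF8-cKO-88 above all WT libraries. The log2 difference of -0.33 (SE 0.73, adjusted p = 0.810) became 0.20 without IRF8-cKO-71 and -1.09 without IRF8-cKO-88. Nqo1 (ENSMUSG00000003849, chr8:107388225-107403206, minus strand), a quinone reductase, was low in this tissue at 9.68, 5.70 and 2.26 CPM in WT and 5.06, 7.34 and 21.4 in IRF8-cKO. Both groups spanned over 4-fold, 4.29-fold in WT and 4.23-fold in IRF8-cKO. Its log2 difference of 0.94 (SE 0.63, adjusted p = 0.379) was 0.09 without IRF8-cKO-106.

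**Figure D4:**
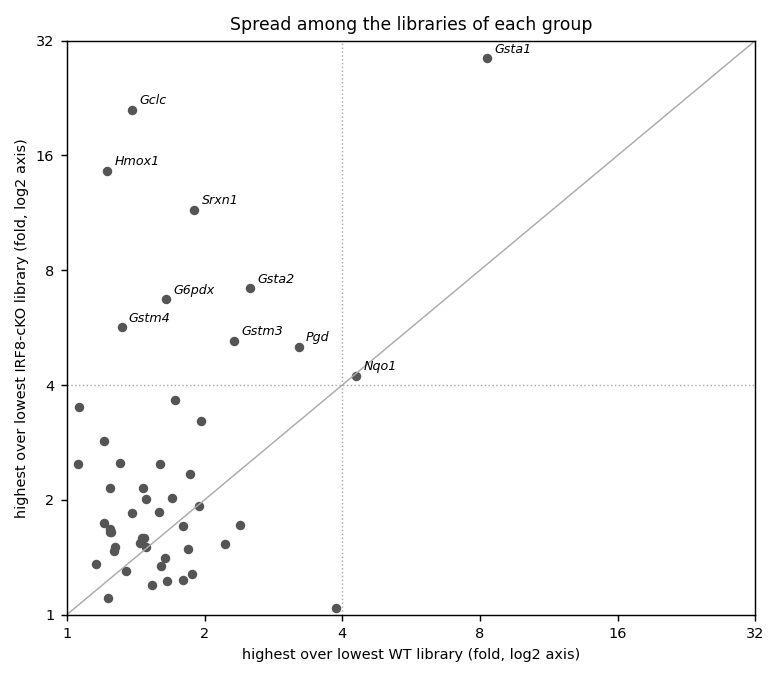
Highest over lowest CPM among the 3 WT libraries (horizontal) and among the 3 IRF8-cKO libraries (vertical) for the 49 members tested, on log2 axes with dotted lines at 4-fold and the diagonal of equal spread. The 10 labelled genes reach 4-fold in IRF8-cKO, with Gsta1 (28.8-fold) and Gclc (21.1-fold) at the top, and only Gsta1 and Nqo1 do so in WT.

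A spread of at least 4-fold among the IRF8-cKO libraries was found for 10 of the 49 members (20.4%), beside 11.9% of all genes. These were Gsta1 (28.8-fold), Gclc (21.1-fold), Hmox1 (14.6-fold), Srxn1 (11.5-fold), Gsta2 (7.17-fold), G6pdx (6.72-fold), Gstm4 (5.67-fold), Gstm3 (5.23-fold), Pgd (5.04-fold) and Nqo1 (4.23-fold). In 8 members (16.3%) IRF8-cKO-106 exceeded IRF8-cKO-71 at least 4-fold, beside 2.82% of all genes; these are the 10 without Gstm3 and Gstm4. The typical member was no more variable than the typical gene, with a median spread of 1.85-fold in IRF8-cKO and 1.53-fold in WT, beside 1.83-fold and 1.57-fold over all genes. IRF8-cKO-106 was the highest of the 6 libraries for 12 members (24.5%), beside 16.9% of all genes, and IRF8-cKO-71 the lowest for 11 (22.4%), beside 25.5%. Both held for 4 members (8.16%), Gclc, Srxn1, Txnrd1 and G6pdx, beside 3.02% of all genes. The first of these counts moves with the scaling: with library totals alone IRF8-cKO-106 was highest for 20 members and for 40.4% of all genes. The 10 wide-ranging genes stayed at 4-fold or more under each of the 3 other scalings, with Gsta4 added under library totals.

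**Figure D5:**
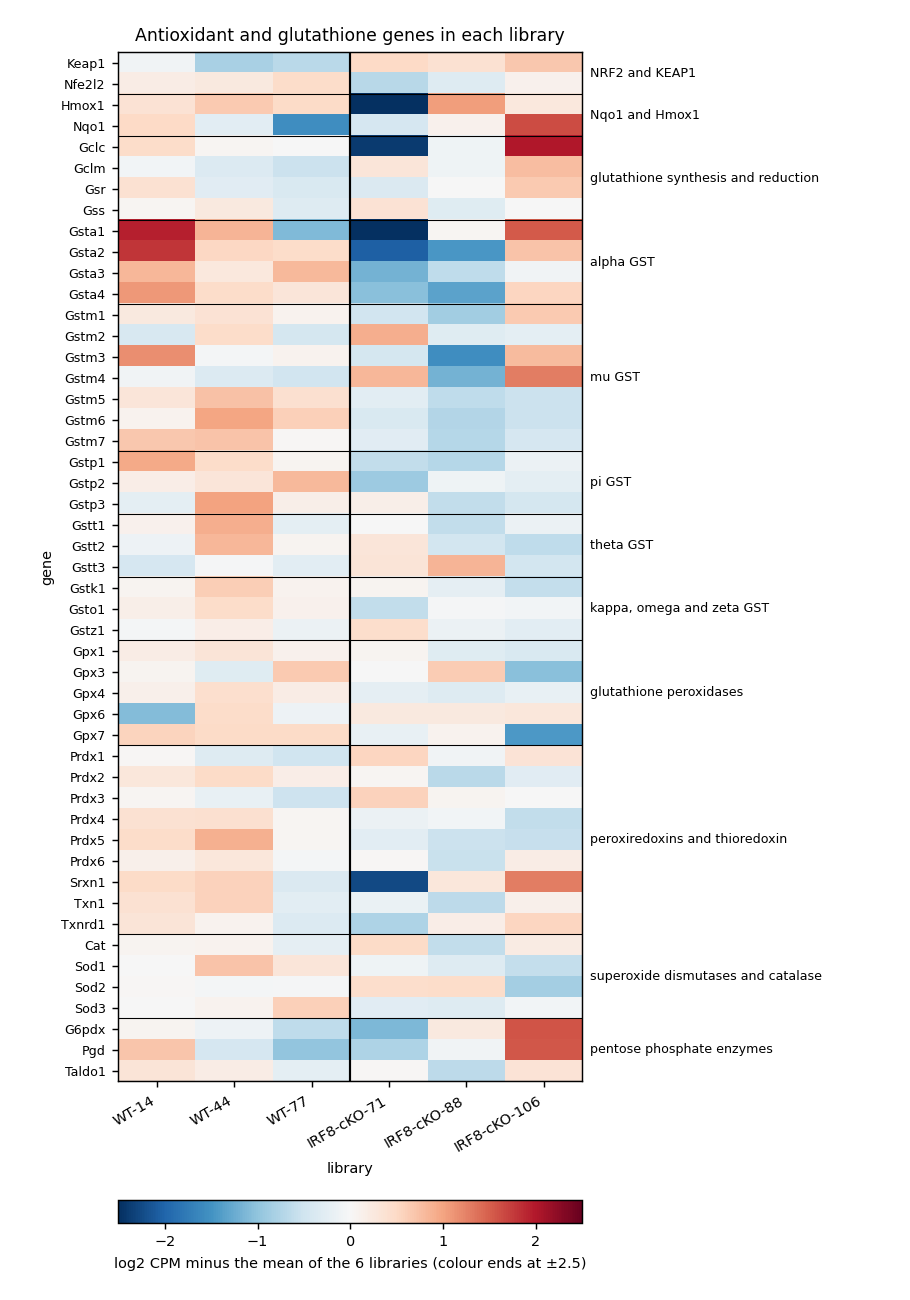
Log2 CPM of each of the 49 members tested in each library, minus the gene's mean over the 6 libraries (red above, blue below; colour ends at 2.5 in either direction), by role. IRF8-cKO-71 holds the deepest blue (Gclc, Hmox1, Srxn1, Gsta1) and IRF8-cKO-106 the deepest red among IRF8-cKO (Gclc, Nqo1, G6pdx, Pgd).

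Promoters of 47 of the 54 members were in the RefSeq table for GRCm38.p6, the assembly of mm10. Sod3, Prdx6, Gsta4, Gclc, Hmox1, Gstt2 and Gsr had no entry. The core of the antioxidant response element, searched as TGACNNNGC on both strands in the 250 bases before each start, occurred in 9 of the 47 (19.1%: G6pdx, Gclm, Gsta3, Gstm5, Gstm7, Nfe2l2, Prdx1, Sod1 and Txnrd1), beside 11.5% of all 27025 genes in the table (10.2% of its 32851 promoters, of which a gene can have several). The AP-1 site TGACTCA, which can share letters with that core, occurred in 5 (10.6%: Gstm5, Gstp1, Gstp2, Prdx1 and Srxn1), beside 5.16% of all genes (4.46% of promoters). A match is a description of these letters and not a site shown to be bound. The sequences below are shown because they belong to genes with unlike patterns: Gclm was highest in IRF8-cKO-106, Srxn1 ranged 11.5-fold within IRF8-cKO, and Gsta3 and Sod1 were lower in all IRF8-cKO libraries. Capitals mark TGACNNNGC in Gclm (minus strand), Gsta3 (plus strand) and Sod1 (minus strand), and TGACTCA in Srxn1 (2 copies, both on the minus strand). All are plus-strand genes, read 5′ to 3′ towards the start, and the last 8 bases of the windows of Srxn1 and Sod1, which lie in an exon, are left out.
Gclm promoter, chr3:122245307-122245556: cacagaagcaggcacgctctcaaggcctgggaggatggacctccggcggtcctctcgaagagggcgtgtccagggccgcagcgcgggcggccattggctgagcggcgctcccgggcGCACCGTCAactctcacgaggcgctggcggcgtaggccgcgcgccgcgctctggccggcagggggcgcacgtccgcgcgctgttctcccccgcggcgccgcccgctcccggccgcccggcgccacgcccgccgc
Srxn1 promoter, chr2:152105274-152105515: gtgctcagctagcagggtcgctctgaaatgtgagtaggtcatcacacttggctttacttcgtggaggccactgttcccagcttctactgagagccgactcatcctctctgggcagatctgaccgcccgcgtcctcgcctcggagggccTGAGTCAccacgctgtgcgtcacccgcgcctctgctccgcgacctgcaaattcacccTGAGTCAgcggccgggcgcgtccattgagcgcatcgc
Gsta3 promoter, chr1:21240335-21240584: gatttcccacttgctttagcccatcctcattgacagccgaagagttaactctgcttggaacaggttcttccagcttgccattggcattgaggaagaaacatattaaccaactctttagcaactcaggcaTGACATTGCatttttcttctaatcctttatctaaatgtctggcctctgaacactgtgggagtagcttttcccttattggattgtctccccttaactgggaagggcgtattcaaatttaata
Sod1 promoter, chr16:90220512-90220753: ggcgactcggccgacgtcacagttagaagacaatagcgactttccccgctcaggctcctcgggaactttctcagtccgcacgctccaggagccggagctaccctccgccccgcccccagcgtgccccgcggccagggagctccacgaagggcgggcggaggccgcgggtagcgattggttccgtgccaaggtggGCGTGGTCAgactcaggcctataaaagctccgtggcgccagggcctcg

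The 4 alpha-class transferases, which conjugate glutathione to electrophiles and reduce lipid hydroperoxides, all had negative differences, with a median of -1.12. Gsta3 (ENSMUSG00000025934, chr1:21240589-21265661, plus strand), the alpha-class gene with the highest level per length, was at 631, 431 and 625 CPM in WT and at 157, 231 and 337 CPM in IRF8-cKO. Its groups did not overlap, and the log2 difference was -1.22 (SE 0.36, adjusted p = 0.0916). With library totals alone the groups overlapped.

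Gsta1, Gsta2 and Gsta4 were given their values in every library after these had been seen. Gsta1 was at 117, 55.1 and 14.2 CPM in WT and at 3.08, 31.8 and 88.9 CPM in IRF8-cKO, an 8.30-fold range within WT and a 28.8-fold range within IRF8-cKO. Its log2 difference of -0.59 (SE 1.01) was 0.26 without WT-14 and -1.81 without IRF8-cKO-106. Gsta2 was at 28.9, 12.0 and 11.5 CPM in WT and at 1.91, 2.96 and 13.7 CPM in IRF8-cKO, where IRF8-cKO-106 alone reached the WT range. Gsta4, which acts on the lipid peroxidation product 4-hydroxynonenal, had the same arrangement, with 59.9, 38.9 and 34.8 CPM in WT and 13.7, 11.2 and 40.8 in IRF8-cKO. Without IRF8-cKO-106 the differences of Gsta2 and Gsta4 went from -1.49 to -2.82 and from -1.02 to -1.83, both with an adjusted p of 0.0772. Gsta1 and Gsta2 share 81.8% and 35.0% of the 100-base windows of their transcripts with other genes, among them each other and Gm3776. The labels do not say how reads with several matches were counted, and their separate values are uncertain.

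The 7 mu-class genes lie side by side on chromosome 3 and did not share 1 direction. Gstm6 (ENSMUSG00000068762, chr3:107938847-107943749, minus strand) was at 47.9, 90.1 and 68.5 CPM in WT and at 34.7, 27.1 and 31.1 CPM in IRF8-cKO. Its groups did not overlap under any of the 4 scalings, and its log2 difference of -1.15 (SE 0.30, adjusted p = 0.0739) had the lowest p of the set. Its range over the fits that left out 1 library was -1.35 to -0.92. Gstm5 and Gstm7 were also lower without overlap under TMM scaling, with log2 differences of -0.98 and -0.97 and adjusted p of 0.124 and 0.107. With library totals alone Gstm7 overlapped between the groups and Gstm5 did not. Of the exonic bases of Gstm5, 13.9% overlap 4933431E20Rik on the other strand. Gstm1 (ENSMUSG00000058135, chr3:108012255-108017973, minus strand), with the highest level per length of the class, was at 876, 952 and 789 CPM in WT and at 532, 408 and 1164 CPM in IRF8-cKO. In Gstm1, IRF8-cKO-71 and IRF8-cKO-88 lay below and IRF8-cKO-106 above all WT libraries, and the log2 difference of -0.31 (SE 0.41, adjusted p = 0.669) was 0.01 with library totals alone.

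Gstm2 and Gstm4 had positive differences of 0.31 and 0.94, and Gstm3 a negative one of -0.61. Gstm4 was at 10.8, 9.07 and 8.24 CPM in WT and at 20.5, 4.997 and 28.3 CPM in IRF8-cKO (adjusted p = 0.295). It lay below WT in IRF8-cKO-88 and above it in the other 2 IRF8-cKO libraries, and without IRF8-cKO-88 its difference was 1.38 with an adjusted p of 0.0260. The fit without that library called 8.83% of all genes. Gstm2 was at -0.19 without IRF8-cKO-71, and Gstm3 at -1.42 without IRF8-cKO-106.

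The 3 pi-class genes, neighbours on chromosome 19, all had negative differences. Gstp1 (ENSMUSG00000060803, chr19:4035407-4037921, minus strand) was at 1455, 1038 and 790.0 CPM in WT and at 495, 458 and 680.2 CPM in IRF8-cKO. Every IRF8-cKO library lay below every WT library, with a log2 difference of -1.01 (SE 0.34, adjusted p = 0.127), and this separation was lost with library totals alone. Gstp2 and Gstp3, at means of 2.41 and 11.7 CPM in WT, had differences of -0.89 and -0.67. Gstp1 and Gstp2 share 52.8% and 63.5% of their 100-base windows with other genes, chiefly each other, and reads may be split between them.

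Of the theta, kappa, omega and zeta classes 6 transferases were tested, and none was called. Gstt1, the theta-class gene with the highest level per length, was at 118, 206 and 93.1 CPM in WT and at 109.6, 71.7 and 98.5 CPM in IRF8-cKO (log2 difference -0.57, SE 0.35, adjusted p = 0.327). The groups overlapped, and WT-44 held the highest value. Gstk1, the mitochondrial and peroxisomal kappa-class enzyme, was at 60.2, 87.98 and 61.0 CPM in WT and at 60.6, 49.3 and 38.2 CPM in IRF8-cKO (-0.50, SE 0.29, adjusted p = 0.309). Its groups also overlapped, by the narrow margin between WT-14 and IRF8-cKO-71. Gstt2 and Gsto1 had differences of -0.52 and -0.46, Gstt3 of 0.58 and Gstz1, an enzyme of tyrosine breakdown, of 0.05, which was -0.02 without WT-77 and -0.19 without IRF8-cKO-71. Of these 6 genes only Gsto1 was without overlap, and with library totals alone it overlapped too.

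Among the glutathione peroxidases, which reduce peroxides at the expense of glutathione, 4 of 5 tested differences were negative, with a median of -0.39. Gpx1 (ENSMUSG00000063856, chr9:108338903-108340343, plus strand) was at 1401, 1543 and 1335 CPM in WT and at 1299, 1000.3 and 956 CPM in IRF8-cKO. The groups did not overlap, although WT-77 and IRF8-cKO-71 nearly met, and the log2 difference was -0.39 (SE 0.30, adjusted p = 0.442). Gpx4 (ENSMUSG00000075706, chr10:80047166-80056439, plus strand), which reduces lipid hydroperoxides in membranes and restrains ferroptosis, was at 263, 323 and 276 CPM in WT and at 205, 193 and 213 CPM in IRF8-cKO. It was lower in all 3 IRF8-cKO libraries, with little spread among them (1.10-fold), and its log2 difference was -0.49 (SE 0.27, adjusted p = 0.277). It shares 48.4% of its windows with other genes, mainly the pseudogene Gpx4-ps2. With library totals alone both genes overlapped. The secreted Gpx3 had a difference of -0.19, which was 0.11 without WT-77 and 0.16 without IRF8-cKO-106, and the scarce Gpx6 and Gpx7 (means of 0.598 and 1.76 CPM in WT) of 0.47 and -0.98.

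The 6 peroxiredoxins, most of which reduce peroxides with electrons from thioredoxin, divided by sign. Prdx5 (ENSMUSG00000024953, chr19:6906697-6910106, minus strand), found in mitochondria, peroxisomes and cytosol, was at 321, 435 and 243 CPM in WT and at 194, 161 and 157 CPM in IRF8-cKO. It was lower in all IRF8-cKO libraries, under library totals too, with a log2 difference of -0.96 (SE 0.31, adjusted p = 0.111). Of its exonic bases 19.1% overlap Trmt112 on the other strand. Prdx2 and Prdx4 were lower without overlap, with differences of -0.59 and -0.54, and with library totals alone Prdx2 overlapped between the groups. Of the exonic bases of Prdx2, 11.5% overlap Junb and Rnaseh2a on the other strand. Prdx6 was at -0.21, and at 0.06 with library totals alone. The cytosolic Prdx1, an NRF2 target in many cell types, and the mitochondrial Prdx3 had positive differences of 0.52 and 0.43. Prdx1 was at 884, 689 and 611 CPM in WT and at 1242, 808 and 1089 CPM in IRF8-cKO (SE 0.32, adjusted p = 0.333), where IRF8-cKO-88 alone lay within the WT range. Txn1, thioredoxin itself, had a difference of -0.46 (adjusted p = 0.410).

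Of the enzymes that remove superoxide and hydrogen peroxide, Sod1 (ENSMUSG00000022982, chr16:90220754-90226329, plus strand), the cytosolic copper-zinc dismutase, was at 703, 1153 and 868 CPM in WT. In IRF8-cKO it was at 658, 567 and 467 CPM, below WT in every library and under every scaling (log2 difference -0.69, SE 0.32, adjusted p = 0.220). The mitochondrial Sod2 had another order of libraries. It was between 251 and 265 CPM in WT and at 353, 356 and 143.6 CPM in IRF8-cKO, so that IRF8-cKO-106 lay below WT and the others above it. Its log2 difference of 0.15 was -0.03 without IRF8-cKO-71 and -0.05 without IRF8-cKO-88. Cat (ENSMUSG00000027187, chr2:103453849-103485160, minus strand), the peroxisomal catalase, was at 996, 1019 and 822 CPM in WT and at 1333, 619 and 1098 CPM in IRF8-cKO. Its IRF8-cKO libraries lay on both sides of WT, and the difference of 0.10 (SE 0.35, adjusted p = 0.878) was -0.13 without IRF8-cKO-71. The extracellular Sod3 was lower without overlap (-0.47, adjusted p = 0.294), and with library totals alone its groups overlapped.

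The pentose phosphate enzymes supply the NADPH that glutathione and thioredoxin reductases use. G6pdx (ENSMUSG00000031400, chrX:74409483-74429194, minus strand), glucose-6-phosphate dehydrogenase, the entry step, was at 7.78, 6.82 and 4.72 CPM in WT and at 3.33, 8.76 and 22.4 CPM in IRF8-cKO. Pgd, the next dehydrogenase, given in full after its values were seen, was at 89.1, 40.9 and 27.7 CPM in WT and at 32.3, 52.1 and 163 CPM in IRF8-cKO. IRF8-cKO-106 held the highest value of both genes. Of the exonic bases of G6pdx, 13.6% overlap Ikbkg on the other strand. The differences of 0.84 (SE 0.59, adjusted p = 0.400) for G6pdx and 0.65 (SE 0.63, adjusted p = 0.556) for Pgd were -0.07 and -0.30 without IRF8-cKO-106, and Pgd was at 1.27 without WT-14. Taldo1, transaldolase of the non-oxidative branch, was at 115, 104.0 and 77.7 CPM in WT and at 93.2, 58.3 and 117 CPM in IRF8-cKO. Its groups overlapped, and its difference of -0.15 (SE 0.32) was 0.09 without IRF8-cKO-88 and 0.11 with library totals alone.

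In 7 lists of related genes outside the set, holding 141 tested genes in all, 2 genes were called, both lower in IRF8-cKO, where 0.937% of all genes were. Nqo2, a quinone reductase related to Nqo1 that uses dihydronicotinamide riboside, was at 24.8, 27.6 and 27.2 CPM in WT and at 10.4, 10.2 and 10.3 CPM in IRF8-cKO. The libraries of each group lay close together, and the log2 difference was -1.36 (SE 0.25, edgeR adjusted p = 0.0439). Selenow, a small selenoprotein of the thioredoxin-like family, was at 47.4, 72.1 and 71.6 CPM in WT and at 29.0, 20.3 and 24.7 CPM in IRF8-cKO (-1.37, SE 0.28, adjusted p = 0.0495). Neither call held when WT-14, WT-44, WT-77 or IRF8-cKO-106 was left out, with adjusted p of 0.0557, 0.176, 0.192 and 0.101 for Nqo2 and 0.0506, 0.204, 0.207 and 0.118 for Selenow. With library totals alone both missed it too, at 0.105.

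The list of 29 other NRF2 targets tested had a median of -0.11, with 1 called, and the 30 thioredoxin, sulfoxide and selenoprotein genes a median of 0.10, with 1 called. In the other NRF2 targets, under TMM scaling, IRF8-cKO-106 was the highest library for 16 genes (55.2%). In the 6 other lists it was highest for 6.67% to 26.7% of genes, beside 16.9% of all genes. With library totals alone that share was 40.4% for all genes, and the lists were not counted on that scale. No gene was called among 27 other genes of glutathione metabolism (median -0.10), 17 other NADPH sources (0.25), 13 oxidant-producing enzymes (-0.26) and 15 genes of metal handling and ferroptosis defence (-0.13). In 3 of these lists the lowest p belonged to Glrx5, a mitochondrial glutaredoxin (-0.89, adjusted p = 0.133), Rpia, ribose-5-phosphate isomerase (-1.21, adjusted p = 0.107), and Slc40a1, the iron exporter (1.72, adjusted p = 0.0855). The second-lowest there were Ggt7 (-2.21), Rpe (1.04) and Tfrc, the transferrin receptor (0.91). Among the oxidant-producing enzymes, 5 differences were positive and 8 negative. Ncf4, a component of the phagocyte oxidase, was at -1.30 (adjusted p = 0.102). Cybb, another component of that oxidase, named after its values were seen, was higher without overlap (0.97, edgeR adjusted p = 0.180). Slc40a1 is also a Kupffer cell marker of the list whose sum was higher.

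The 5 members that were not tested were scarce. Gpx5 and Gstt4 each had 1 read, in IRF8-cKO-106. Gpx2 and Gsto2 reached at most 0.368 and 0.345 CPM in any library, and Gpx8 0.834. The low-count filter removed them, so the reported fit gives no difference for them.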

How the data were processed

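The authors deposited raw read counts per gene for the 6 libraries, whole numbers that were not normalised, with Ensembl identifiers, mm10 coordinates and gene lengths. Total RNA from a Trizol extraction went, per the labels' protocols, into NEBNext Ultra libraries for Illumina sequencing. HISAT2 2.0.5, featureCounts 1.5.0-p3 and mm10 are named in the submitters' processing notes. Whether counting used strand, what was done with reads of several matches, and which annotation release served are each not given in the sources used here. Antisense or overlapping genes and near-identical copies may therefore share reads; this was checked against GENCODE M21, by exon overlap and by 100-base transcript windows found in other genes. At least 10% of exonic bases overlapped another gene in 8 members, which include Gss, Gstz1 and Gstt3. Levels per length used the deposited gene lengths.

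Groups came from the titles, and no column was left unmapped. Libraries of 1 group differed by a chi-square per degree of freedom of 69.9 or more, so none was counted as a copy of another. Genes were kept by filterByExpr (minimum count 10, minimum total 15) and compared with edgeR 4.0.16 in R 4.3.3: TMM scaling, robust quasi-likelihood fit with a term for group alone, two-sided test, Benjamini-Hochberg adjustment over 13134 genes, threshold 0.05. Positive log2 fold changes are higher in IRF8-cKO; standard errors were derived as |log2 fold change| over the root of F. The biological coefficient of variation was 37.1%. Counts of 12912 genes were simulated for this comparison, with 97 genes changed 2-fold and 95 changed 4-fold. The 4-fold changes were recovered in 48.4% of cases and the 2-fold ones in 1.03%, with 2 false among 49 calls. Most 2-fold differences could thus not be called in the simulation. Recovery under this adjustment depends on how many genes change, so these shares need not hold for the real libraries. DESeq2 1.42.0 and limma 3.58.1 served as alternatives.

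The members, lists and named-gene rule were chosen with earlier results of these data known. The rule gives values in every library for members with an adjusted p under 0.05, members without overlap and an absolute log2 fold change of at least 1, Nfe2l2, Keap1, Nqo1, Hmox1, Gclc, Gclm, Srxn1 and Txnrd1, and in each role class the member with the highest level per length and the one with the lowest p. Each outside list adds members with an adjusted p under 0.05, at most 4, or else the 2 with the lowest p. Gsta1, Gsta2, Gsta4, Gstm4, Pgd, Prdx1, Sod2 and Maff were added after their values had been seen. Some items that the rule or the lists take are not reported here.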

Additional observations from a re-analysis of the deposited data

How the results depend on the processing

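The count of genes called moved most. From 182 it went to 82 with library totals alone, 1723 without the low-count filter, 1350 with DESeq2 and 111 with limma-voom, and to 0 to 1205 when 1 library was left out (1 without WT-44, 0 without WT-77, 20 without IRF8-cKO-106, 1205 without IRF8-cKO-88). Without WT-77, 1988 genes had an unadjusted p under 0.05. Of the members, 0 were called in the reported fit and in all alternatives but 3: 5 without the low-count filter (Gsta2, Gsta3, Gsta4 and Gstm6 lower, Keap1 higher), 5 with DESeq2, and 1 without IRF8-cKO-88, a range of 0 to 1 over the fits without 1 library. In the lists beside the members the 2 calls became 1 with median-of-ratios factors, limma-voom or no robust shrinkage, 0 with library totals, 19 without the filter, 16 with DESeq2, and 0 to 15 without 1 library. Of all genes, the fit without the low-count filter called 7.15%, DESeq2 9.46% and the fit without IRF8-cKO-88 8.83%, beside 1.39% in the reported fit. The cause of these changes was not tested.

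The members' median was -0.18 with library totals and between -0.39 and -0.25 without 1 library. Members lower without overlap were 16, or 6 with library totals, and higher without overlap 1, or 3. This comparison of scalings was chosen after the data were seen, as was leaving out the 7 members that share at least 10% of their 100-base windows with another gene, which gave 0 calls and a median of -0.26 over 42 members. Of the gene results under all alternatives, 872 kept direction and side of the threshold, 30 passed it, 13 lost it and 28 reversed. The reversed ones were, with library totals, Gstm1 (0.0131), Prdx6 (0.0571) and Taldo1 (0.11), and with limma-voom, Gclc (-0.35), Srxn1 (-0.48) and Txnrd1 (-0.0497). Without 1 library the ranges that crossed 0 were -0.995 to 1.14 for Gclc, -0.75 to 0.59 for Srxn1, -0.26 to 0.33 for Txnrd1, -0.10 to 0.50 for Gsr, -0.15 to 0.18 for Gss, -1.09 to 0.20 for Hmox1 and -1.81 to 0.26 for Gsta1. They were -0.19 to 0.66 for Gstm2, -0.19 to 0.20 for Gstz1, -0.64 to 0.16 for Gpx3, -0.13 to 0.37 for Cat, -0.0459 to 0.48 for Sod2, -0.30 to 1.27 for Pgd, -0.0718 to 1.29 for G6pdx and -0.37 to 0.0886 for Taldo1. A fit without members whose proteins are at least 90% identical was not run, since no protein table was used here. No paired analysis was possible because no replicate number occurs in both groups. Depth limits Gpx6, Gpx7 and Gstp2 most, with about 1 to 3 CPM or less.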
